A study of Mus musculus with 8 samples.

Results

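A set of 10 genes from the annexin, S100, galectin and intermediate filament families was followed in mouse CD4 T cells: the annexin genes Anxa1, Anxa2, Anxa4 and Anxa5, the S100 genes S100a4, S100a6, S100a10 and S100a11, the galectin gene Lgals1 and the intermediate filament gene Vim. They are 10 of the 16308 genes in the deposited count table. The genes were chosen from results of this same contrast, the counts of Th17 against naive cells, so their differences between these groups are given as a description with no test.

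The cells were of the C57BL/6 strain, and ribosome-depleted RNA was sequenced. The Th17 and naive cells are both named WT in the file headers, and in those of the counts every library also carries the tag Malat1. What that tag marks is not given in the sources used here. Th17 cells had been cultured for 72 h with 20 ng/mL of IL-6 and 0.1 ng/mL of TGF-β on 0.25 µg/mL of anti-CD3ε with 1 µg/mL of anti-CD28, and naive CD4+ cells were untreated. Each group had 2 libraries, which the series calls independent biological replicates. Th17 cells differ from naive cells in activation, cytokines and time in culture at once, and these cannot be told apart. A further pair of groups, DDX5-deficient Th17 cells (DDX5∆T) and wild-type Th17 cells grown under the same conditions for 72 h, had 2 libraries each and was read here for RNA editing alone. What drives the DDX5 deletion is not given in the sources used here.

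Annexins bind acidic phospholipids of membranes when calcium rises, and take part in membrane repair, vesicle traffic and the anchoring of the actin cortex. S100 proteins are small EF-hand proteins that mostly change shape on binding calcium and then dock onto partners, annexins among them. Galectin-1, the product of Lgals1, binds β-galactoside sugars on glycoproteins of the T cell surface and is known to be made by activated T cells. Vimentin forms the main intermediate filament network of lymphocytes and other cells of mesenchymal origin.

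Promoters of 8 of the 10 genes were found in RefSeq (GRCm38.p6), each with 250 bases before the transcription start site and 50 from it on. Those of Anxa2, S100a11 and S100a6 are shown because Anxa2 and S100a6 had the largest differences and Anxa2 and S100a11 held an AP-1 motif. Capitals mark the AP-1 motif TGAGTCA and the TATA box TATAAA on either strand. They lie on the plus strand at chr9:69453433-69453732, chr3:93520246-93520545 and chr3:90612644-90612943.
Anxa2: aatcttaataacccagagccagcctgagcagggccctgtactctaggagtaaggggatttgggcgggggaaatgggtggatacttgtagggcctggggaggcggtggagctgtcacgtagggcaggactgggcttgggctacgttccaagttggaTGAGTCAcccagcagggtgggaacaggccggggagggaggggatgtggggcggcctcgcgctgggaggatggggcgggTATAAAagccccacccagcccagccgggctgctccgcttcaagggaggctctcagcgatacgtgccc
S100a11: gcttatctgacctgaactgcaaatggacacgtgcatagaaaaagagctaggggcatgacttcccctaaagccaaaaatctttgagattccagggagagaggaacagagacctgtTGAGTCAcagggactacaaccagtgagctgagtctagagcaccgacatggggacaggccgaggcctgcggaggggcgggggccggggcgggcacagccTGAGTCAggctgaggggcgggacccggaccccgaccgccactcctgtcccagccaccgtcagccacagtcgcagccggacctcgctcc
S100a6: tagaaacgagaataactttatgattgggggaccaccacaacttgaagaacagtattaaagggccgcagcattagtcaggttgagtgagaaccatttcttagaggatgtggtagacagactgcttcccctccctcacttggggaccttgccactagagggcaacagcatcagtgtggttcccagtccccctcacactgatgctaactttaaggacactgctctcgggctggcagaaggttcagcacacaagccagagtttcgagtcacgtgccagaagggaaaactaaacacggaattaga

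The 8 genes had 9 promoters, because Anxa4 has a further start site. The AP-1 motif stood in 2 of the 9, against 5.20% of all 32851 promoters of that length. In Anxa2 its first base lay 95 bases before the start site, and in S100a11 the copies began 136 and 38 bases before it. The TATA box was found in 4 of the 9, those of Anxa1, Anxa2, S100a4 and Vim, against 13.6% of all promoters. The GC box GGGCGG stood in Anxa2, Anxa4 and S100a11, against 35.7% of all promoters, and the E-box CACGTG in S100a6 and S100a11, against 7.15%. The NF-kB motif was found in Anxa4 and Vim, against 8.46%, where 2 of the 3 matches in Vim overlap, and the CArG box in Anxa5, against 1.63%. The STAT motif TTCNNNGAA was in 0 of the 9, against 8.30%. These matches describe letters in these windows only.

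Reads on genes ran from 11768994 to 26624436 in the Th17 libraries and from 16154625 to 20426728 in the naive libraries, and 3 reads in a library came to between 0.104 and 0.227 CPM, the usual unit of reads scaled to a common library size, here after TMM normalization. Naive and Th17 identity matched the labels, with the 7 Th17 markers summing to 4170 and 3760 CPM in Th17 libraries against 7.27 and 5.07 CPM in naive libraries. Th17 library 2 stood apart in markers of stromal cells. Its 10 stromal markers summed to 1410 CPM, against 265 CPM in Th17 library 1 and 7.16 and 6.20 CPM in the naive libraries, where Dcn, Lum and Pdgfra had 0 reads. Sparc had 6707 reads in Th17 library 2 and 1 read in Th17 library 1, Col1a1 had 6207 and 35, Col1a2 1372 and 0, and Col3a1 1282 and 0. Lum, a proteoglycan gene, made up most of the sum in library 1 with 7396 reads there and 2684 in library 2. Stromal cells make vimentin, galectin-1, annexins and S100 proteins. Values without Th17 library 2 are therefore given where it changed a call or moved a fold change by over 1.5 times. They are also given for the genes of the 10 that shifted most. For Plau and Gcnt1 the values of each Th17 library are given instead. The part of such RNA in the values of library 2 was not tested. In bulk RNA, fewer cells of a type and less RNA per cell cannot be told apart.

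Th17 cells had more RNA of all 10 genes than naive cells, in both libraries, by mean folds of 1.63 to 117. Of the 41 other measured genes of their families, 24 also had both Th17 libraries above both naive libraries and 8 had both below. S100a2, S100a7a and Sync are among those above and had at most 5 reads in any library. The share of genes so separated was not counted over all genes. Neither the separation of the 10 nor that of the 41 is therefore read as a result. The median log2 fold change of the 10 was 3.06, beside 0.06 over the 11989 genes tested, and nothing is read from it, because the choice of the genes used this contrast. Without Th17 library 2 the log2 fold changes of 9 of the 10 genes moved by at most 0.36, and that of S100a4 moved by more.

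**Figure D1:**
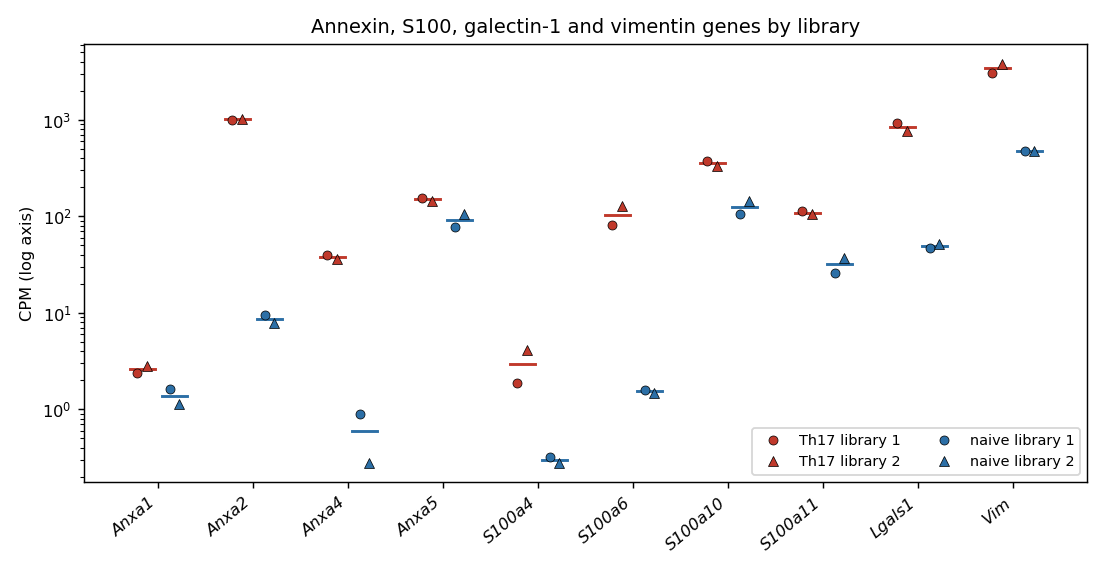
CPM of the 10 genes in each library on a log axis, Th17 in red left of naive in blue, circles for library 1, triangles for library 2 and lines for the mean. Both Th17 libraries lie above both naive libraries for every gene, which the choice of the genes favours. The gap is widest for Anxa2, at 1001 and 1018 against 9.45 and 7.82 CPM.

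Anxa2, whose protein pairs with S100A10 at the plasma membrane and binds plasminogen and its activator, was the annexin with the largest difference. It had 1001 and 1018 CPM in the Th17 libraries, against 9.45 and 7.82 CPM in the naive libraries. Th17 library 2 stood at 1.02 times library 1, and the lower of the pair was 106-fold above the higher naive library. The log2 fold change was 6.87 (SE 0.23), and 6.86 without Th17 library 2.

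Anxa4, an annexin best known from epithelial membranes, had few reads in naive cells. It had 39.4 and 36.1 CPM in Th17 libraries, against 0.902 and 0.282 CPM in naive libraries, which rest on 17 and 4 reads. Its log2 fold change of 5.91 (SE 0.41) was 6.99 without naive library 1 and 5.30 without naive library 2.

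Anxa5 encodes the phosphatidylserine binder used to stain dying cells. It had 156 and 144 CPM in Th17 libraries, against 77.8 and 106 CPM in naive libraries. The groups did not overlap, but the lower Th17 library was only 1.36-fold above the higher naive one, and the log2 fold change was 0.71 (SE 0.18).

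Anxa1, whose protein dampens inflammation through formyl peptide receptors, stayed low in both groups. It had 69 and 37 reads in Th17 libraries, or 2.39 and 2.80 CPM, against 31 and 16 reads in naive libraries, or 1.65 and 1.13 CPM. Its log2 fold change of 0.89 had an SE of 0.50. The receptor genes Fpr1 and Fpr2 were not analysed here.

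S100a6, the gene of calcyclin, showed the largest difference among the S100 genes. It had 80.5 and 127 CPM in Th17 libraries, against 1.59 and 1.48 CPM in naive libraries, which rest on 30 and 21 reads. Th17 library 2 was 1.58 times library 1, while library 1 alone was 52.4-fold above the naive mean. The log2 fold change was 6.07 (SE 0.30), and 5.71 without Th17 library 2.

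S100a10 encodes the S100 protein that holds annexin A2 in its tetramer and is unusual in that its EF hands do not need calcium. It had 371 and 335 CPM in Th17 libraries, against 107 and 143 CPM in naive libraries. The lower Th17 library was 2.34-fold above the higher naive library, and the log2 fold change was 1.50 (SE 0.19).

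S100a11, whose protein binds annexins A1 and A2, followed at a similar size. It had 114 and 105 CPM in Th17 libraries, against 26.1 and 37.5 CPM in naive libraries, a log2 fold change of 1.79 (SE 0.20).

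S100a4, the gene of a protein that binds nonmuscle myosin and is often used as a mark of memory and migrating cells, had few reads. It had 54 and 54 reads in Th17 libraries, or 1.87 and 4.09 CPM, against 6 and 4 reads in naive libraries, or 0.318 and 0.282 CPM. Th17 library 2 was 2.18 times library 1, and the log2 fold change of 3.26 (SE 0.66) was 2.61 without Th17 library 2 and 3.69 without Th17 library 1. Of the 584 exon bases of S100a4, 302 also belong to the annotated gene Gm42674 on the same strand. Reads on such bases may have been left uncounted or assigned elsewhere, since the counting settings are not given in the sources used here, so the level of S100a4 is uncertain. Of the other genes of the 10, Anxa2 shares 98 of 3731 exon bases and Anxa4 75 of 4645 with annotated genes of the opposite strand.

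Lgals1 had 924 and 773 CPM in Th17 libraries, against 47.1 and 52.0 CPM in naive libraries. Both Th17 libraries were at least 14.9-fold above the higher naive library. The log2 fold change was 4.10 (SE 0.20), and 4.23 without Th17 library 2, in which Lgals1 was the lower of the pair.

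Vim had 89023 and 50069 reads in Th17 libraries against 9058 and 6703 in naive libraries. This came to 3088 and 3794 CPM in Th17 libraries, against 481 and 472 CPM in naive libraries. Library 1 alone was 6.48-fold above the naive mean, and the log2 fold change was 2.85 (SE 0.22), or 2.70 without Th17 library 2.

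**Figure D2:**
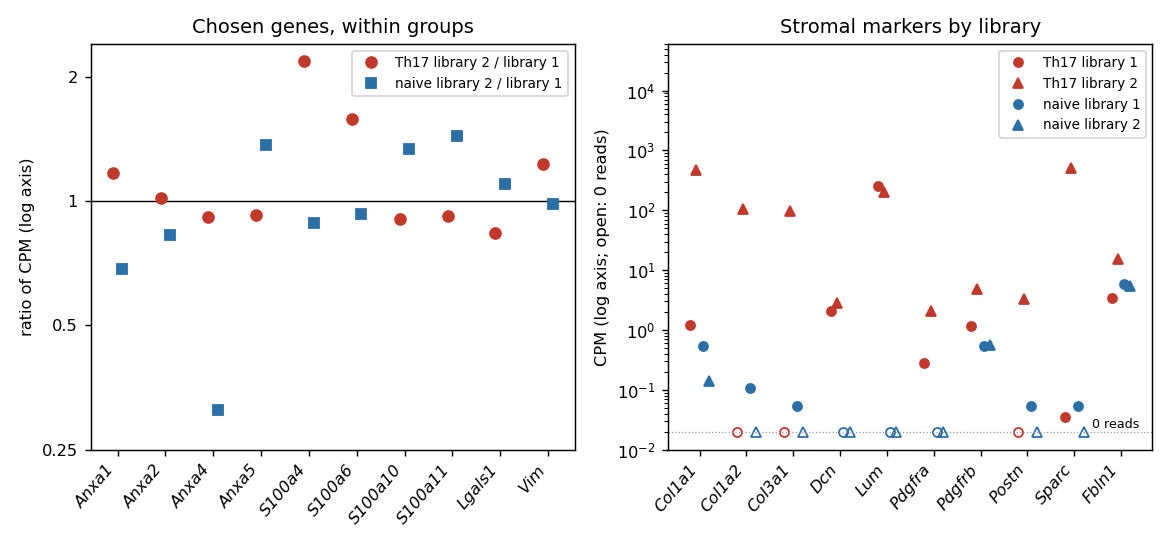
Left, CPM of library 2 over library 1 within Th17 (red circles) and within naive cells (blue squares) for the 10 genes, on a log axis with 1 marked by a line. Right, CPM of 10 stromal markers by library on a log axis, Th17 in red and naive in blue, open marks at the dotted line for 0 reads. S100a4 and S100a6 have the highest Th17 ratios, at 2.18 and 1.58, and Sparc, Col1a1, Col1a2 and Col3a1 are high in Th17 library 2 alone.

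The excess of Th17 library 2 was not shared by all 10 genes. Library 2 lay above library 1 for S100a4, S100a6, Vim, Anxa1 and Anxa2, by 1.02 to 2.18 times. It lay below for Lgals1, S100a10, Anxa4, S100a11 and Anxa5, at 0.837 to 0.924 times. In naive cells Anxa4 spread the most, with library 2 at 0.312 times library 1.

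Divided by annotated exon length, the order of the genes changed between the groups. In Th17 cells the highest level per kb of exon was that of Lgals1, at 939 ± 118 CPM per kb (SD, n = 2), and that of Vim was 726 ± 105. These neighbours differed by less than their summed SD. S100a10 at 291 ± 20.6 and Anxa2 at 271 ± 3.22 CPM per kb (SD, n = 2) came next and also differed by less than their summed SD, followed by S100a11 at 215 ± 13.01. Anxa5 at 84.4 ± 4.74 and S100a6 at 76.0 ± 24.3 CPM per kb were within their spread of each other. Anxa4 at 8.13, S100a4 at 5.11 and Anxa1 at 0.893 CPM per kb closed the order, with S100a4 spread by an SD of 2.69.

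In naive cells S100a10 at 103 ± 21.1 and Vim at 100 ± 1.28 CPM per kb (SD, n = 2) shared the top. S100a11 at 62.1 ± 15.8, Lgals1 at 54.8 ± 3.83 and Anxa5 at 51.8 ± 11.3 CPM per kb lay within their spread of one another. Anxa2 at 2.31 and S100a6 at 1.12 CPM per kb were far below, and S100a4, Anxa1 and Anxa4 were at 0.514, 0.476 and 0.127.

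The partners S100a10 and Anxa2, whose proteins form a complex of equal parts, were at unequal RNA levels per kb in naive cells and near equal levels per kb in Th17 cells. The ratio of S100a10 to Anxa2 per kb was 1.14 and 1.01 in Th17 libraries, against 34.8 and 56.4 in naive libraries. It rests on the length of all annotated exons joined, 1212 bases for S100a10 and 3731 for Anxa2. Without that division S100a10 had a mean of 353 CPM and Anxa2 1010 CPM in Th17 cells, against 125 and 8.63 CPM in naive cells. Protein was not measured. S100a11 over Anxa2 showed a like pattern, at 0.834 and 0.753 in Th17 libraries against 20.1 and 35.0 in naive libraries. S100a11 remained far above its other partner Anxa1, at 272 and 213 in Th17 libraries against 90.2 and 189 in naive libraries.

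Of the S100 genes measured, 13 of 15 lie on chromosome 3 of the mm10 build, in a group of 11 from S100a1 to S100a9 and a pair, S100a11 and S100a10, after a gap of 2825 kb. Levels in the group of 11 were mixed among neighbours. S100a6 (90612882 to 90624181) had 76.0 ± 24.3 CPM per kb in Th17 cells, while S100a5, which ends 1.10 kb before it, had 0.0803 ± 0.114 CPM per kb (SD, n = 2), from 2 reads in all. S100a1 and S100a13 are neighbours, and S100a1 rose by a log2 of 4.52 (SE 0.65), or 5.77 without naive library 1 and 3.86 without naive library 2. S100a13 was not called at 0.34 (SE 0.16), but was called higher with library size alone as scaling (0.64) and by DESeq2 (0.37).

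**Figure D3:**
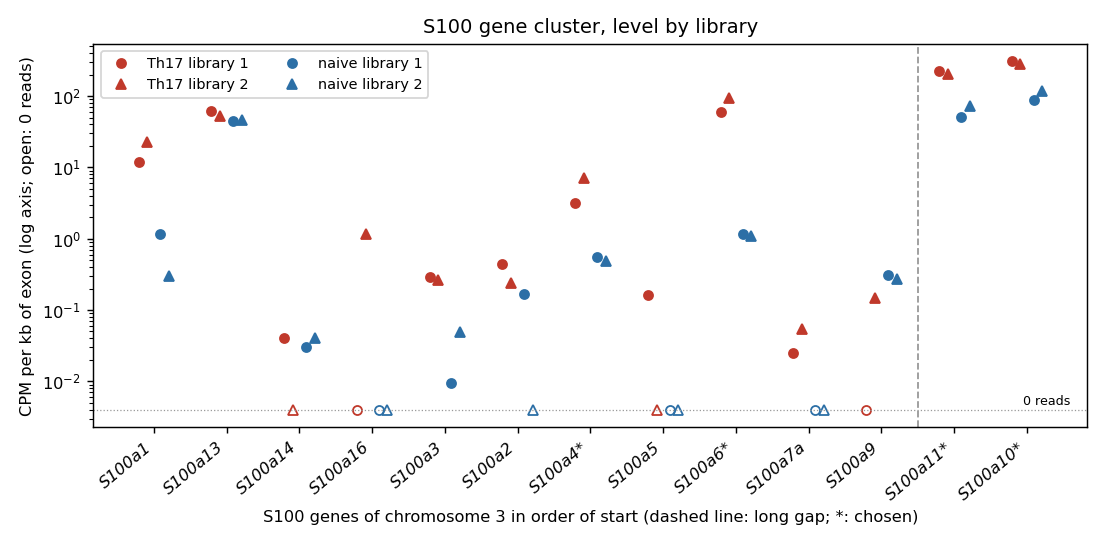
Level of 13 S100 genes of chromosome 3 in order of their start, as CPM per kb of exon on a log axis, Th17 in red and naive in blue, circles for library 1 and triangles for library 2. Open marks at the dotted line are 0 reads. S100a13, S100a6, S100a11 and S100a10 hold the high levels, while S100a14, S100a2, S100a5, S100a7a and S100a9 have at most 4 reads in any library.

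The rest of the families went both ways, and these genes can be tested because the choice left them out, although that choice was made with their results known. Of 22 tested annexin, S100, galectin and intermediate filament genes, 14 rose and 4 fell in the edgeR quasi-likelihood fit at a Benjamini-Hochberg adjusted p under 0.05. Over all 11989 genes tested 34.3% were called higher and 30.7% lower, and the counts for each family below stand beside those shares. The median log2 fold change of the 22 was 1.81 (1.73 with genes that had no naive read at their lower bound), beside 0.06 over all genes. A further 19 measured genes had too few reads to be tested, so the 22 are not the whole families. Ina, Synm, Prph, S100a3, Anxa3, Anxa9, Lgals7 and S100a1 had at most 15 reads in a naive library. They passed the filter on low counts through their Th17 reads, so a rise was favoured by their entry. The count of rises and the median carry that limit. Leaving out naive library 1 left 9 rises and 2 falls, and leaving out naive library 2 left 8 rises and 2 falls. Without Th17 library 2 there were 14 rises and 3 falls.

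**Figure D4:**
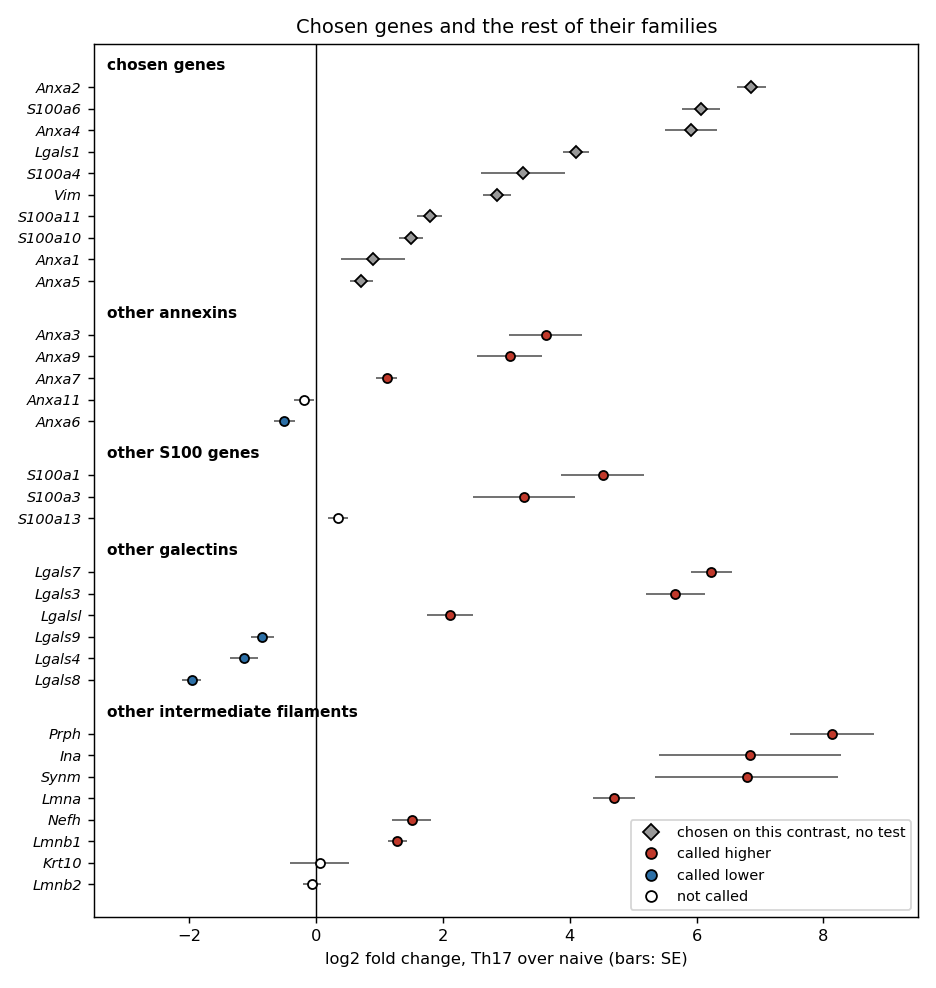
Log2 fold change, Th17 over naive, with its SE for the 10 chosen genes (grey diamonds, no test) and the 22 other tested genes of their families (circles: red called higher, blue called lower, white not called). Galectins split, from Lgals7 at 6.23 to Lgals8 at -1.96. Fitted values of Ina and Synm rest on 0 naive reads and are no measure of size.

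Among 5 other tested annexins 3 rose and 1 fell. Anxa3 rose to 4.07 ± 0.182 CPM in Th17 cells, against 0.318 ± 0.151 CPM in naive cells (SD, n = 2), and Anxa9 to 4.36 ± 0.374 against 0.520 ± 0.0606 CPM. Anxa7, which acts in membrane fusion, rose by a log2 of 1.12 (SE 0.17). Anxa6, an annexin that links membranes to the actin cortex, fell to 464 and 496 CPM in Th17 libraries, against 663 and 695 CPM in naive libraries, with an edgeR adjusted p of 0.028. That call was lost when any 1 of the 4 libraries was left out, with library size alone as scaling and with the replicate number as a block, at edgeR adjusted p from 0.056 to 0.243. Anxa11 was not called, at -0.19 (SE 0.16). Anxa3 was not called without naive library 2, nor Anxa9 without either naive library.

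Among 3 other tested S100 genes 2 rose and 0 fell. S100a1 had 8.36 and 15.99 CPM in Th17 libraries, against 0.796 and 0.211 CPM in naive libraries. S100a3 had 1.63 and 1.51 CPM in Th17 libraries, against 0.0531 and 0.282 CPM in naive libraries, and was not called without either naive library or with other filters on low counts. Its log2 fold change of 3.27 was 2.41 without naive library 1 and 4.67 without naive library 2. S100a9, a neutrophil and monocyte gene, had 0 and 1 reads in Th17 libraries and 3 and 2 in naive libraries. S100g, a calcium-binding gene of gut epithelium, had 0 and 321 reads in Th17 libraries 1 and 2 and 0 in naive cells, and S100a16 had 0 and 25 reads in those Th17 libraries.

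Among 6 other tested galectins 3 rose and 3 fell. Lgals3, a galectin of activated T cells and macrophages, rose to 98.4 and 78.5 CPM in Th17 libraries, against 2.49 and 0.845 CPM in naive libraries, with an edgeR adjusted p of 5.2e-04. Its log2 fold change of 5.66 was 6.66 without naive library 1 and 5.07 without naive library 2. Lgals7, with 1065 and 376 reads in Th17 libraries against 6 and 8 in naive libraries, rose by a log2 of 6.23 (SE 0.32), and Lgalsl by 2.11 (SE 0.36). Lgals8 fell to 14.1 and 14.8 CPM in Th17 libraries, against 56.2 and 56.6 CPM in naive libraries. Lgals9, known as a ligand of the inhibitory receptor TIM-3, changed by -0.85 (SE 0.18) and Lgals4 by -1.14 (SE 0.22). Lgals9 was not called without naive library 2, nor Lgals4 without naive library 1.

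Among 8 other tested intermediate filament genes 6 rose and 0 fell. Lmna, which encodes the A-type lamins of the nuclear envelope, rose to 222 and 219 CPM in Th17 libraries, against 11.1 and 5.70 CPM in naive libraries. Lmnb1 rose by a log2 of 1.28 (SE 0.15), and Lmnb2 was not called at -0.07 (SE 0.14). Prph, the gene of the neuronal filament peripherin, had 304 and 131 reads in Th17 libraries against 1 and 0 in naive libraries, a read ratio of 342 (counting interval 61.1 to 13500). Nefh rose by 1.51 (SE 0.31). Ina and Synm had no naive read and were at least 4.12-fold and 3.88-fold higher, against a floor of 3 reads in each naive library. Krt10 was not called, at 0.06 (SE 0.47), and Krt8 had 1 and 613 reads in Th17 libraries 1 and 2 and 0 in naive cells. Nefh, Ina and Synm were not called without either naive library.

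Of 40 tested genes whose products act with these proteins 12 rose and 10 fell, with a median log2 fold change of 0.15. These counts are near the shares over all genes tested, of which 34.3% were called higher and 30.7% lower. Of 22 tested partners of annexins and S100 proteins 6 rose and 3 fell. Of 18 tested partners of galectins and vimentin 6 rose and 7 fell. Naive libraries 1 and 2 held 20 and 5 reads of Myh10, 1 and 1 of Dysf and 22 and 8 of Aurkb. These genes passed the filter on low counts through their Th17 reads, so a rise was favoured by their entry. Cd7, with 4 and 4 reads in Th17 libraries, passed through its naive reads, so a fall was favoured. The partner counts carry that limit. Without naive library 1 the partner genes called higher were 7, and with library size alone as scaling they were 19. Without Th17 library 2 they were 14, with 10 lower.

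The 3 largest called rises among annexin and S100 partners were in Myh10, Dysf and Plaur. Myh10, a nonmuscle myosin heavy chain gene, had 99.1 and 117 CPM in Th17 libraries, against 1.06 and 0.352 CPM in naive libraries. Its log2 fold change was 7.17, or 8.20 without naive library 1. Dysf, the membrane repair gene dysferlin, had 107 and 185 reads in Th17 libraries against 1 and 1 in naive libraries, a read ratio of 115 (counting interval 31.5 to 953), and was not called without either naive library. Its log2 fold change of 7.03 was 5.81 without Th17 library 2 and 7.64 without Th17 library 1. Plaur, the urokinase receptor gene, rose by a log2 of 4.36 (SE 0.22). Myh9, the other nonmuscle myosin heavy chain gene of the list, fell to 604 and 946 CPM in Th17 libraries, against 2785 and 2014 CPM in naive libraries. That call was lost without either naive library. Ager, the gene of the S100 receptor RAGE, changed by -2.38 (SE 0.33) and the calpain gene Capn1 by -1.20 (SE 0.16).

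Among galectin and vimentin partners, the kinase genes Aurkb and Plk1, whose products phosphorylate vimentin in mitosis, had log2 rises of 6.21 (SE 0.32) for Aurkb and 4.48 (SE 0.23) for Plk1. Dst, of the plakin linkers of filaments, rose by 4.23 (SE 0.38). Without naive library 1 the values were 6.83 for Aurkb and 4.87 for Dst. Cd7, a galectin-1 binding glycoprotein gene of T cells, fell to 0.139 and 0.303 CPM in Th17 libraries, against 52.8 and 61.6 CPM in naive libraries, a log2 fold change of -8.16, or -7.55 without Th17 library 1. Cd3e changed by -2.17 (SE 0.20), and the filamin gene Flna by -1.58 (SE 0.22).

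Markers of other states and cells were summed beside the 10 genes. The 9 memory T cell markers summed to 1780 and 1690 CPM in Th17 libraries, against 586 and 413 CPM in naive libraries, with 6 called higher and 2 lower and none at 0 reads in either group. Itga4, a marker called lower, had 8.15 and 9.40 CPM in Th17 libraries, against 438 and 273 CPM in naive libraries, and so made up most of the naive sums. Most of the Th17 sums came from Il2rb, at 973 and 863 CPM, and Cd44, at 532 and 467 CPM. The 11 myeloid markers summed to 8.64 and 10.3 CPM in Th17 libraries, against 27.0 and 18.0 CPM in naive libraries, with 1 marker at 0 reads in Th17 cells. The 7 B cell markers summed to 0.624 and 1.29 CPM in Th17 libraries, against 2.49 and 3.17 CPM in naive libraries, with 1 marker at 0 reads in each group. The 7 dendritic cell markers summed to 83.7 and 88.2 CPM in Th17 libraries, against 6.69 and 4.30 CPM in naive libraries. H2-Ab1 alone had 79.8 and 83.7 CPM in Th17 libraries, against 3.71 and 2.39 CPM in naive libraries, while Itgax was called lower and Clec9a had 0 reads in Th17 cells. The 8 CD8 and NK markers summed to 52.2 and 53.6 CPM in Th17 libraries, against 89.4 and 106 CPM in naive libraries. The 9 platelet and erythroid markers summed to 6.49 and 13.9 CPM in Th17 libraries, against 15.5 and 10.2 CPM in naive libraries. The 5 T cell markers summed to 1430 and 1260 CPM in Th17 libraries against 3870 and 4420 CPM in naive libraries, and the 7 naive markers to 1270 and 1190 against 7290 and 7560 CPM. The part of memory cells in the naive levels of the 10 genes was not tested.

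The gene with the profile closest to the median of the 10 over the 4 libraries was Dstn, at 50.6 and 70.7 CPM in Th17 libraries against 7.80 and 8.10 CPM in naive libraries. Its Euclidean distance was 0.145 in centred log2 CPM. The next were Ifna4, Garem2, Lgi1 and Mylk2, at distances of 0.153 to 0.171, each with 0 naive reads and under 1 CPM in Th17 libraries.

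RNA editing offered a readout that the choice of genes did not use. Of 869 sites listed for Th17 and naive cells and 355 listed for DDX5-deficient and wild-type Th17 cells, 0 lay within any of the 10 genes and 0 in the other genes of their families. The lists hold only sites past a confidence limit, so this says nothing of editing below it. The share of all genes that hold a listed site was not counted. The absence of sites is therefore not read as a trait of these genes. Among partner genes, Actb and Flna had sites in both tables. A Flna site (chromosome X, 74226650) was edited at 57.7% and 31.2% in DDX5-deficient libraries, against 92.3% and 83.3% in wild-type libraries, and at 73.1% and 54.5% in Th17 libraries, with no value in the naive libraries. The Actb site (chromosome 5, 142904250) was edited at 18.5% and 20.0% in DDX5-deficient libraries, against 15.9% and 66.7% in wild-type libraries. The groups were apart at the Flna site and overlapped at the Actb site. With 2 libraries against 2 an exact permutation test could not go below a two-sided p of 0.333, so neither difference was tested.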

How the data were processed

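Ribosome-depleted RNA of 2 Th17 and 2 naive libraries was read as counts per gene as deposited by the authors, and RNA editing as the fraction of edited reads per site as deposited by the authors for 8 libraries. Per the submitters' processing notes the tools were DESeq2 1.18.1, STAR 2.6.1a and featureCounts, on mm10. The use of strand and of reads shared by overlapping genes is not given in the sources used here. The fractions are printed as percents.

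Counts were fitted over all genes with edgeR 4.0.16 in R 4.3.3 (filterByExpr, TMM, robust quasi-likelihood on group alone, Benjamini-Hochberg adjustment, called at an adjusted p under 0.05), after a test on simulated data. CPM use TMM-scaled library sizes. SE is the log2 fold change over the root of the F statistic. Exon lengths and positions are those of GENCODE M21. Counting intervals are exact conditional binomial 95% intervals, and floors of 3 reads, like intervals, cover counting error only. The p-values measure the spread between libraries.

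Members and lists were chosen with earlier results of these data known. Named were the 10 genes, every tested gene of their families, the 3 largest called rises and falls of each partner list, and the 5 nearest profiles. The epithelial list was added after values were seen. Alternatives were RLE scaling, library size alone, no filter, a minimum mean of 10 normalized counts, DESeq2 1.42.0, the replicate block and each library left out. Same-numbered libraries did not deviate together (r = -0.08 across genes), and the labels do not say that the numbers pair. The Th17 and naive libraries 2 also share a sample number in the labels and libraries 1 do not. What it marks is not stated, so whether those libraries came from 1 animal is unknown.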

Additional observations from a re-analysis of the deposited data

How the results depend on the processing

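With 2 libraries a group, leaving out 1 leaves a single library, and that single library is taken to vary as the other group does. Over the 4 such fits all genes called higher ran from 2380 to 4847 and lower from 2567 to 3672, other family genes higher from 8 to 17 and lower from 2 to 3, and partner genes higher from 7 to 14 and lower from 9 to 10. Scaling by library size alone moved the median of all genes to 0.36, against 0.06 with TMM, and gave 19 partner genes called higher against 9 lower, and over all genes 5186 higher against 2619 lower. Under it the uncalled Anxa11 and Lmnb2 turned to 0.11 and 0.23, and Krt10 ran from -0.10 to 0.12 with 1 library left out. With the replicate block the calls were 4094 higher and 3644 lower over all genes, 14 and 3 in the families and 13 and 9 among partners, and Anxa6 was not called. The causes were not tested. The 10 chosen genes kept their direction in all alternatives, which their choice favours. Their log2 fold changes stayed between 0.59 and 1.19 for Anxa1, 0.46 and 1.01 for Anxa5, and 6.67 and 7.16 for Anxa2. Depth limits Anxa1, S100a4 and the naive levels of Anxa4 and S100a6, which rest on 4 to 69 reads a library.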

Other observations

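The partner genes given here lie outside the naming rule and were picked after their values were seen, so they show no theme. Ahnak, the giant scaffold bound by annexin A2 and S100A10, had 332 and 376 CPM in Th17 libraries, against 35.5 and 12.2 CPM in naive libraries, and rose by a log2 of 3.88 (SE 0.68), or 4.82 without naive library 1 and 3.24 without naive library 2. The integrin gene Itgb1 had 180 and 271 CPM in Th17 libraries, against 53.3 and 58.1 CPM in naive libraries, a call lost without either naive library. Actb, the gene of the actin of the cell cortex, had 3821 and 3988 CPM in Th17 libraries, against 6126 and 8065 CPM in naive libraries, and fell by 0.86 (SE 0.24) on the log2 scale, a call lost with the replicate block and without either Th17 library. The large surface glycoprotein genes Ptprc and Spn, both galectin-1 ligands, fell by 1.12 (SE 0.21) and 0.89 (SE 0.17) on the log2 scale.

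Some partner genes differed between the Th17 libraries. Plau, the urokinase gene, had 21 and 168 reads in Th17 libraries 1 and 2 and 0 in naive libraries, and Gcnt1, which builds the core glycan that galectin-1 binds, had 172 and 614 reads in Th17 libraries against 4 and 6 in naive libraries. Neither was called. Of 9 epithelial markers, Vil1 had 1 and 124 reads and Krt7 0 and 50 reads in Th17 libraries 1 and 2, and the 9 summed to 0.833 and 23.2 CPM there, against 6.31 and 5.84 CPM in naive libraries.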
